A study of Mus musculus with 52 samples.

Results

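The epididymis is the coiled duct in which sperm leaving the testis mature, and its epithelium secretes a set of proteins that the testis itself is not known for. The RNA of 9 such genes was examined in mouse testes: the lipocalins Lcn5, Lcn8, Lcn9, Lcn10 and Lcn12, the secreted glutathione peroxidase Gpx5, the sperm-coating protein gene Crisp1, the membrane protease-like gene Adam7 and the surface glycopeptide gene Cd52. The genes were taken by name, 9 of the 34865 genes listed for testes. They had been chosen from their measured mean levels in these same testes libraries, so the levels in wild-type, Tug1-/- and rescue testes are given as a description and carry no test.

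RNA was sequenced from testes of 4 wild-type, 4 Tug1-/- and 3 rescue male mice. The labels place the wild-type mice on a C57BL/6J/129S6 background with no Neo cassette, and the Tug1-/- and rescue mice on the same mixed background with Neo and lacZ. The study's methods describe crosses that removed the neomycin cassette before the colony was expanded, and whether these mice carried it is not settled by the sources used here. Tug1-/- mice were homozygous for the Tug1_tm1.1Vlcg allele, in which lacZ stands in place of the body of the long noncoding RNA gene Tug1 while its promoter and first exon remain. Rescue mice carried that deletion too, together with a randomly integrated tg(Tug1) transgene and the CAGs-rtTA3 transactivator, and were kept on doxycycline, which switches the transgene on. The transgene encodes an isoform without part of the 5′ region, and its lines came from 2 founders. Ages are not in the labels. Wild-type and Tug1-/- mice, but no rescue mice, also gave 3 samples each of spleen, liver, heart, eye and cultured fibroblasts of mouse embryos (MEFs), and for prostate 3 wild-type against 2 Tug1-/- samples.

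The values read are the mean level of each group in TPM, which adjusts read counts for the length of each gene and for library size. Values of single libraries were not used here, so no replicate error, interval or p-value accompanies any difference below, and depth per library is unknown. What n and a mean fix is a limit: if the means are arithmetic, no library of a group can exceed n times the group mean, and at least 1 library must reach it. A high mean of 4 libraries can therefore rest on 1 of them. The mean level of Tug1 itself was 40.1 TPM in wild-type, 0.885 TPM in Tug1-/- and 1.60 TPM in rescue testes.

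The epididymis is divided along its length into the initial segment, caput, corpus and cauda, and each stretch has its own secretions. Lipocalins are small carriers of lipids and other hydrophobic molecules, and several of those expressed in the proximal epididymis lie together on chromosome 2. GPX5 is secreted by the caput and protects sperm from peroxides, CRISP1 binds to sperm and acts in fertilization, ADAM7 is passed from the epithelium to the sperm surface, and CD52 is a small lipid-anchored peptide of both leukocytes and the distal epididymal epithelium. Androgens and factors arriving with the testicular fluid, the lumicrine route, are known to maintain many of these genes.

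Proximal promoter sequence is shown for 4 of the genes, because Lcn8, Lcn5 and Lcn9 on the one hand and Crisp1 on the other had opposite orders of the wild-type and Tug1-/- means described below. Each line gives the 120 bases before the RefSeq transcription start, 5′ to 3′ on the strand of the gene, from assembly GRCm38.p6. In Lcn5 and Crisp1 the capitals mark TATAAA, the core of a TATA box. Lcn8 and Lcn9 do not hold these exact letters, and nothing is marked in them. Other forms of a TATA box were not searched for, so one spelled otherwise would not be marked. The positions are chr2:25652998-25653117 (plus strand) for Lcn8, chr2:25657832-25657951 (plus) for Lcn5, chr2:25823033-25823152 (plus) for Lcn9 and chr17:40319208-40319327 (minus) for Crisp1.
Lcn8: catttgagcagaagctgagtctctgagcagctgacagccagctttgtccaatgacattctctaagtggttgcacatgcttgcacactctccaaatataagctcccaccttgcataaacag
Lcn5: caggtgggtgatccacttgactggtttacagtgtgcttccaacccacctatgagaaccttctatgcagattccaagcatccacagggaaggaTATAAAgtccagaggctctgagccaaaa
Lcn9: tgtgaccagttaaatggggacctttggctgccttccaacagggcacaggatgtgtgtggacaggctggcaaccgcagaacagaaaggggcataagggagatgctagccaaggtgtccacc
Crisp1: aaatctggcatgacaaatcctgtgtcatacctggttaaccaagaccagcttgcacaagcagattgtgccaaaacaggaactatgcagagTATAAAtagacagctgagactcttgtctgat

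A RefSeq promoter was at hand for 7 of the 9 genes, all but Cd52 and Adam7. Within the 250 bases before the start, TATAAA on either strand was present in 2 of the 7, Lcn5 and Crisp1, against 12.4% of 32851 promoters. In Lcn5 it began at base -28 and in Crisp1 at base -31 from the start. AGGAAG, a core site of ETV transcription factors, was in 0 of the 7 and in 29.5% of all promoters. These are matches of letters in a short window, and no binding was measured.

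The genes fell into 2 patterns by their group means. Gpx5, Lcn8, Lcn5, Lcn9 and Lcn10 were abundant in the wild-type mean and under 1 TPM in both the Tug1-/- and the rescue mean. Crisp1, Cd52, Adam7 and Lcn12 kept a mean of 12.7 TPM or more in Tug1-/- testes, and rescue testes held at most 3.12 TPM. In wild type the 9 genes together made up 4790 TPM, or 0.479% of all transcripts, against 1096 TPM in Tug1-/- and 5.12 TPM in rescue testes. In bulk RNA, fewer cells of a type, less RNA per cell and a differing share of adjoining tissue cannot be told apart. How much epididymis came with each testis is not given in the sources used here and was not tested.

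**Figure D1:**
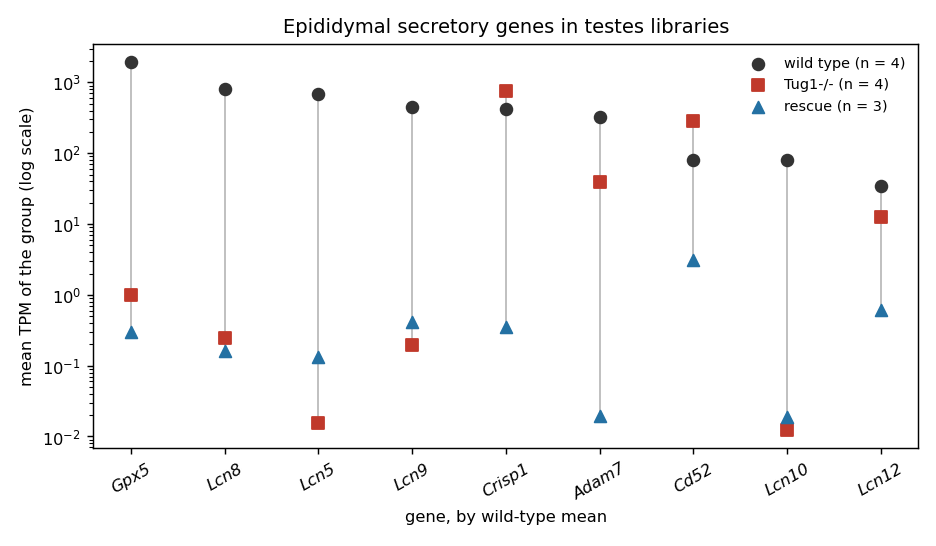
Mean TPM of each gene (log axis) in wild-type, Tug1-/- and rescue testes, 1 point per group and a grey line spanning the 3 means. Gpx5 and 4 lipocalins have only the wild-type point above 1 TPM, while for Crisp1 and Cd52 the Tug1-/- point is the highest.

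Gpx5 (ENSMUSG00000004344.12, chr13:21286429-21292731, minus strand, GRCm38) had the highest wild-type mean of the 9. It averaged 1921 TPM in wild type, which placed it at rank 28 of all genes. The Tug1-/- mean was 0.981 TPM and the rescue mean 0.297 TPM, so Tug1-/- testes had 0.0511% of the wild-type mean. No Tug1-/- library can have held more than 3.92 TPM and no rescue library more than 0.890 TPM, while at least 1 wild-type library reached 1921 TPM or more. The groups thus did not share the top level, but whether every wild-type library stood above the others is not fixed by the means. Gpx6, the neighbouring glutathione peroxidase gene 19.4 kb away, had means of 35.7, 36.9 and 31.8 TPM in wild-type, Tug1-/- and rescue testes.

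Lcn8 (ENSMUSG00000036449.6, chr2:25653120-25656217, plus strand) encodes a lipocalin of the proximal epididymis. Its mean was 799 TPM in wild type, 0.244 TPM in Tug1-/- and 0.160 TPM in rescue testes. Lcn5 (ENSMUSG00000026937.12, chr2:25657952-25661977, plus strand), which codes for a retinoic acid-binding lipocalin, starts next to it on the same strand. Lcn5 averaged 680.0 TPM in wild type, 0.0155 TPM in Tug1-/- and 0.132 TPM in rescue testes. In both genes the wild-type mean far exceeded the other means, with a ratio to the Tug1-/- mean of 3275 for Lcn8 and 43897 for Lcn5. Denominators under 0.3 TPM set these ratios, so their size is poorly fixed.

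Lcn9 (ENSMUSG00000023210.2, chr2:25823153-25825537, plus strand) and Lcn10 (ENSMUSG00000047356.2, chr2:25682726-25686081, plus strand) are further lipocalins of the same chromosome. Lcn9 had means of 444 TPM in wild type, 0.197 TPM in Tug1-/- and 0.410 TPM in rescue testes. Lcn10 had 79.8, 0.0124 and 0.0189 TPM. The rescue mean was above the Tug1-/- mean for Lcn5, Lcn9 and Lcn10, but each of these values was under 0.5 TPM. No library of the Tug1-/- or rescue groups can have exceeded 1.23 TPM for Lcn5, Lcn8, Lcn9 or Lcn10.

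Crisp1 (ENSMUSG00000025431.4, chr17:40293758-40319207, minus strand) was higher in Tug1-/- than in wild-type testes by its mean. It averaged 427 TPM in wild type, 760.5 TPM in Tug1-/- and 0.348 TPM in rescue testes. The Tug1-/- mean was 1.78 times the wild-type mean, and the rescue mean was 0.0816% of it. Every rescue library was at or below 1.04 TPM, whereas at least 1 library of each other group reached its mean. Crisp3, a paralog that lies beside Crisp1, had means of 0.242 to 0.341 TPM in the 3 groups. Reads that fit both paralogs equally well were not counted.

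Cd52 (ENSMUSG00000000682.7, chr4:134082448-134095082, minus strand) had the same order of means. It averaged 80.4 TPM in wild type, 282 TPM in Tug1-/- and 3.12 TPM in rescue testes, a Tug1-/- mean 3.50 times the wild-type mean. No rescue library can have exceeded 9.37 TPM. Cd52 is also a leukocyte gene, so the leukocyte list is given beside it: Ptprc, the pan-leukocyte surface phosphatase, had 0.418, 0.494 and 0.456 TPM, and the 10 leukocyte genes summed to 53.3, 71.9 and 60.6 TPM in wild-type, Tug1-/- and rescue testes. Of these 10, 0 were past 1.5-fold between Tug1-/- and wild type in either direction, and none was at 0. The highest log2 ratio of a leukocyte gene, with 0.1 TPM added, was 0.51 against 1.81 for Cd52.

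Adam7 (ENSMUSG00000022056.9, chr14:68497336-68533741, minus strand) and Lcn12 (ENSMUSG00000026943.12, chr2:25490845-25493911, minus strand) were lower in Tug1-/- than in wild-type testes by their means but, unlike the first pattern, stayed well above 1 TPM there. Adam7 averaged 326 TPM in wild type, 39.8 TPM in Tug1-/- and 0.0193 TPM in rescue testes. Its Tug1-/- mean was thus 12.2% of the wild-type mean, and its rescue mean was 0.00592% of it. Lcn12 averaged 34.3, 12.7 and 0.611 TPM, with a Tug1-/- mean 37.2% of the wild-type mean. Adam28, an ADAM gene whose start is 122 kb from that of Adam7, had 34.2 TPM in wild type and under 0.02 TPM in the other groups, unlike the 39.8 TPM of Adam7 in Tug1-/-.

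The wild-type and Tug1-/- means were set against each other on the scale log2((TPM + 0.1)/(TPM + 0.1)), which shrinks the ratios of low values. By this scale 7 of the 9 genes were lower in Tug1-/- past 1.5-fold and 2 were higher. Over all 34865 genes 5.19% were lower and 4.71% higher past that limit, and among the 22378 with at least 1 TPM in either group 3.51% were lower. Nothing is read from this contrast or the rescue contrasts below, since the wild-type, Tug1-/- and rescue means served to choose the genes. The median log2 ratio of the 9 was -9.47 against 0.03 over all genes, and single values ran from -12.52 for Lcn5 to 1.81 for Cd52.

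Rescue against wild type gave 9 of 9 genes lower past 1.5-fold, where 8.06% of all genes were lower and 4.47% higher. The log2 ratios ran from -12.24 for Gpx5 to -4.64 for Cd52, with a median of -9.90. Rescue against Tug1-/- gave 5 of 9 lower, namely Crisp1 (-10.73), Adam7 (-8.39), Cd52 (-6.45), Lcn12 (-4.17) and Gpx5 (-1.45), against 6.41% of all genes. The Gpx5 value rests on means of 0.981 and 0.297 TPM, and with a minimum of 1 TPM in either group 4 genes were lower. Lcn5 (1.01) and Lcn9 (0.78) were higher past 1.5-fold, against 3.17% of all genes, both from means under 0.5 TPM. Lcn8 and Lcn10 were within 1.5-fold. These 3 contrasts share groups and their values are not independent of each other.

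**Figure D2:**
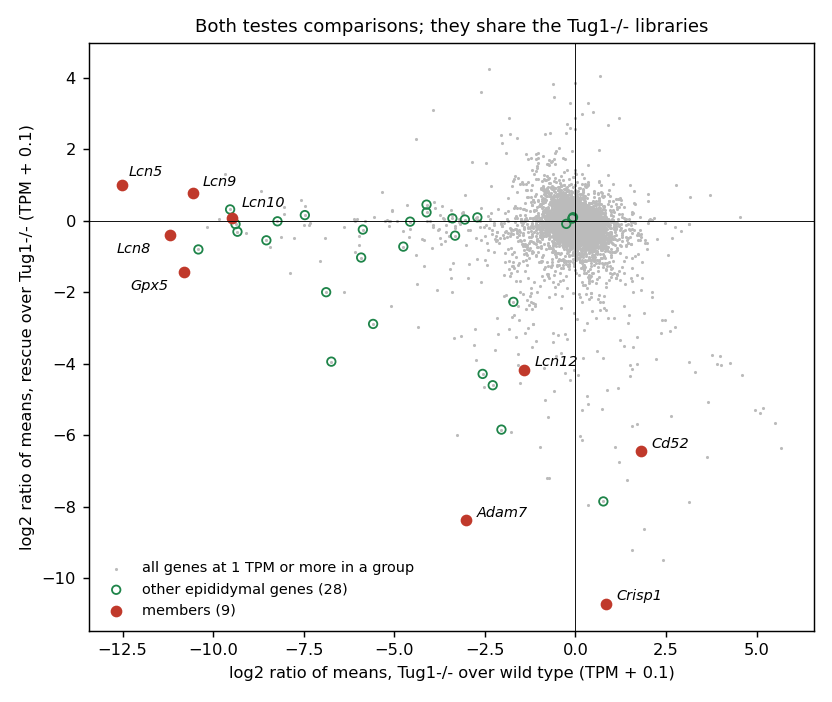
Log2 ratio of mean TPM for Tug1-/- over wild type (horizontal) and rescue over Tug1-/- (vertical), with 0.1 TPM added, for 22669 genes at 1 TPM or more in at least 1 testes group (grey), the 9 genes (red) and 28 other epididymal genes (green circles). Gpx5 and 4 lipocalins lie far to the left near the horizontal axis, and Crisp1, Cd52, Adam7 and Lcn12 lie low, with Crisp1 and Cd52 to the right of 0.

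The lipocalin genes lie in a stretch of 335 kb on chromosome 2 that also holds genes of other families. From Lcn12 to Lcn9 (chr2:25490845-25825537) the testes table lists 27 genes, 10 of them lipocalins. Of these 10, 8 had a lower mean in Tug1-/- than in wild-type testes past 1.5-fold, against 5.19% of all genes. Among the 8, Lcn12, Lcn8, Lcn5, Lcn10 and Lcn9 had been chosen from these means, so the count is no separate result. The rest were Lcn6, Obp2a and Obp2b, the last with only 0.232 TPM in wild type. Of the 17 genes that are not lipocalins, 15 were within 1.5-fold and 2 were lower. These 2 were Bmyc, a Myc-related gene, and A230005M16Rik, an antisense RNA that starts 3 kb from it. How the counting treated strand is not given in the sources used here, so reads of Bmyc and of the antisense RNA may not be separable. Bmyc averaged 11.0 TPM in wild type, 2.11 TPM in Tug1-/- and 2.46 TPM in rescue testes. Genes between Lcn12 and Lcn8 such as Edf1 (192, 197 and 203 TPM) and Ccdc183 (142, 146 and 141 TPM) had close means in the 3 groups. The window was drawn after the values had been seen.

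**Figure D3:**
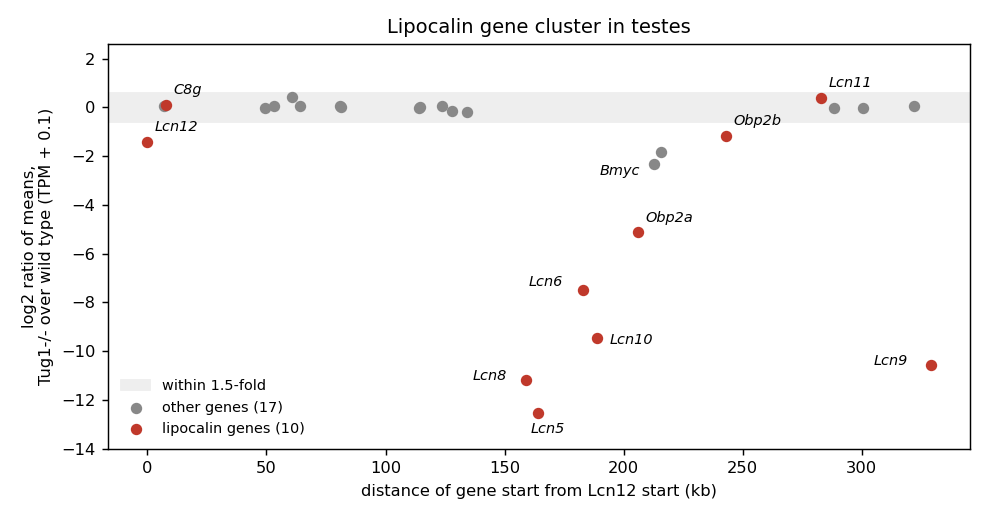
Log2 ratio of mean TPM, Tug1-/- over wild type (0.1 TPM added), against the distance of each gene start from that of Lcn12 on chromosome 2, for 10 lipocalin genes (red) and 17 other genes (grey), with the band within 1.5-fold shaded. The lipocalins Lcn8, Lcn5, Lcn6, Lcn10 and Lcn9 lie below -7 while 15 of the other genes lie in the band.

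The relatives of the 9 genes were mixed. Of 14 other lipocalins looked for, 7 were listed, with 3 lower and 1 higher in Tug1-/- than in wild-type testes past 1.5-fold and a median log2 ratio of 0.08. The higher one was Lcn2, the siderophore-binding lipocalin, with 219, 342 and 159 TPM. Lcn6, a neighbour of Lcn10, averaged 19.9 TPM in wild type, 0.0128 TPM in Tug1-/- and 0.0258 TPM in rescue testes. Obp2a, an odorant-binding lipocalin, averaged 3.40 TPM in wild type and was listed at 0 in both other groups. Ptgds, the prostaglandin D2 synthase of the family, had 381, 467 and 169 TPM.

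Among 5 other CRISP genes, Crisp4, an epididymal sperm-binding gene, was lower in Tug1-/- with means of 13.4, 1.25 and 0.908 TPM, and the other 4 were within 1.5-fold. Crisp2, expressed in spermatids, had 3022, 2905 and 2840.0 TPM. Of 6 listed glutathione peroxidases, Gpx3, the secreted plasma form, had 132 TPM in wild type, 222 TPM in Tug1-/- and 15.4 TPM in rescue testes, the order of means seen for Crisp1 and Cd52. Gpx8, a peroxidase of the endoplasmic reticulum, had 13.6, 7.97 and 6.71 TPM. These were the 1 higher and the 1 lower in Tug1-/- past 1.5-fold, and the other 4 were within it, among them Gpx4, the phospholipid peroxidase of sperm, with 979, 986 and 978 TPM. Of 9 other ADAM genes, 8 were within 1.5-fold in each comparison, and the exception was Adam28.

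Most of the other epididymal genes looked for also had a lower mean in Tug1-/- than in wild-type testes. Of 28 such genes, all listed, 24 were lower and 1 was higher past 1.5-fold, against 5.19% and 4.71% of all genes. Their median log2 ratio was -4.34 against 0.03 over all genes, and 9 of the 28 had a Tug1-/- mean under 1 TPM. In rescue against Tug1-/- 11 were lower and 0 higher, with a median of -0.28. Spag11b, a defensin-like antimicrobial gene, averaged 323 TPM in wild type, 0.137 TPM in Tug1-/- and 0.0360 TPM in rescue testes. Cst11, a secreted cystatin, had 285, 0.285 and 0.379 TPM. The exception in the other direction was Defb28, a beta-defensin gene, with 118, 200.4 and 0.765 TPM. Rnase9 and Rnase12, members of a secreted ribonuclease-like family, differed in Tug1-/- testes: Rnase9 averaged 222 TPM in wild type, 1.98 TPM in Tug1-/- and 0.0351 TPM in rescue testes, and Rnase12 averaged 74.1, 17.9 and 0.213 TPM. Cst8, Cst12 and Aqp9 were within 1.5-fold. Since Lcn6, Crisp4, Adam28, Adam3, Ros1 and Aqp9 stand in more than 1 list, the lists are not separate evidence.

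Of 15 genes of the lumicrine and androgen pathways, 6 were lower and 0 higher in Tug1-/- past 1.5-fold, with a median log2 ratio of -0.42. The lumicrine ligand gene Nell2 had 25.0, 26.8 and 28.1 TPM, and Gm1673, which encodes its secreted partner NICOL, had 32.8, 37.2 and 34.6 TPM. Ros1, the receptor tyrosine kinase that the lumicrine signal acts through, had 7.81 TPM in wild type, 0.650 TPM in Tug1-/- and 0.686 TPM in rescue testes. Ovch2, an epididymal protease gene downstream of Ros1, had 57.6 and 0.0671 TPM and was listed at 0 in rescue. Srd5a2, which converts testosterone to dihydrotestosterone, had 17.8, 1.88 and 1.77 TPM.

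Most markers of epithelium also had lower means in the Tug1-/- and rescue groups than in wild type. Of 14 genes of epididymal and duct epithelium, 10 were lower and 0 higher in Tug1-/- than in wild-type testes past 1.5-fold, with a median log2 ratio of -1.25, and 10 were lower in rescue than in Tug1-/-, with a median of -0.96. Their summed mean was 231 TPM in wild type, 153 TPM in Tug1-/- and 129 TPM in rescue testes, and none was at 0. Aqp9 (63.6, 59.9 and 62.4 TPM) and Epcam (59.8, 47.1 and 42.6 TPM) made up a large part of these sums. Both were among the 4 genes within 1.5-fold in Tug1-/- over wild type, with Pax2 and Atp6v1b1. Larger differences were seen for other genes: Krt18, a keratin of simple epithelia, averaged 29.7, 6.50 and 0.895 TPM. Cdh16, a cadherin of kidney and duct epithelia, averaged 7.85, 0.275 and 0.0936 TPM. Krt5, a basal cell keratin, averaged 3.16, 1.14 and 0.0405 TPM. The part of these epithelial genes in the levels of the 9 genes was not tested.

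The lists of markers of the testis itself had medians closer to 0 than the 9 genes had. Of 7 spermatid genes 0 were past 1.5-fold in any comparison, with Prm1, a protamine, at 14339 TPM in wild type, 13386 TPM in Tug1-/- and 13033 TPM in rescue testes. The 6 Sertoli cell genes had a median log2 ratio of 0.40 and the 6 Leydig cell genes one of 0.63 in Tug1-/- over wild type. In rescue over wild type the medians were 0.58 and 0.25, with 3 of the 6 Sertoli and 1 of the 6 Leydig genes higher past 1.5-fold. In Tug1-/- over wild type 0 of the Sertoli and 3 of the Leydig genes were higher past 1.5-fold, with Insl3 at 56.9, 144 and 65.5 TPM. The 10 seminal vesicle and prostate secretion genes listed summed to 11.3, 17.8 and 17.5 TPM. Of these, 4 were higher and 1 lower in Tug1-/- than in wild type past 1.5-fold, and in rescue over Tug1-/- 1 was lower and 9 were within. Svs5 had 7.88, 11.3 and 12.5 TPM, and Svs1, the 1 lower in rescue, had 0.0377, 1.95 and 0.0275 TPM.

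**Figure D4:**
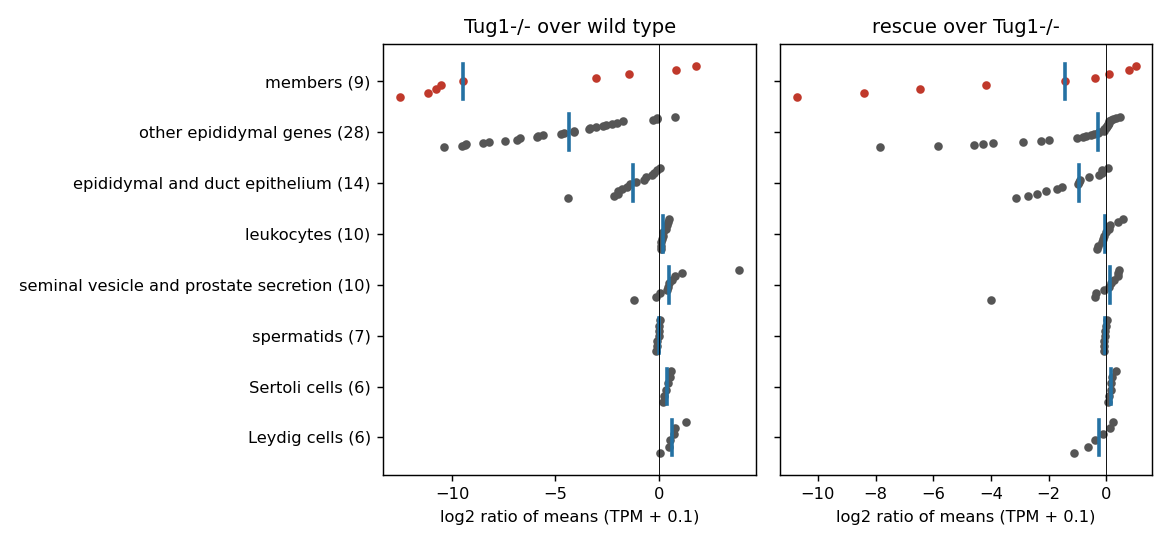
Log2 ratios of mean TPM (0.1 TPM added) of every listed gene in 8 lists, for Tug1-/- over wild type (left) and rescue over Tug1-/- (right); each point is a gene and the blue bar is the median. The spermatid and leukocyte genes sit close to 0, the 9 genes and the 28 other epididymal genes spread far to the left.

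The genes nearest to the median of the 9 by the pair of log2 ratios are named as a description, since the point sought fixes their order of means. Among 21796 other genes with a wild-type mean of at least 1 TPM, the 10 nearest were Spag11b, Spint4, Epp13, Ovch2, Defb20, Defb18, Defb25, 9230110F15Rik, Spink11 and Teddm1a, at distances of 1.13 to 1.68. Of the 10, 4 stand in the list of 28 other epididymal genes. The median point lies beside the pattern of Gpx5 and the lipocalins and far from Crisp1 and Cd52, so likeness here is to the first pattern.

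Outside testes, in eye, heart, liver, MEFs, prostate and spleen, 3 of the 9 genes, Lcn5, Lcn9 and Lcn10, were listed in 0 of 6 tissues. A gene is missing from a tissue when none of its libraries there had 3 reads or more. Lcn8, Adam7 and Gpx5 were listed in 2 tissues each, Lcn12 and Crisp1 in 3, and Cd52 in 6. The rule did not use these tissues, but only the group means were used and no test was run.

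Of the 6 tissues read besides testes, Crisp1 was above 1 TPM in prostate alone, where wild-type mice held 12.7 TPM and Tug1-/- mice 11.0 TPM. Adam7 was above 1 TPM in eye alone of these 6, where the wild-type mean was 1.60 TPM and the Tug1-/- mean 1.47 TPM. Lcn8 reached 0.552 and 0.853 TPM in eye and 0.586 and 0.333 TPM in liver. Lcn12 stayed at or below 0.527 TPM and Gpx5 at or below 0.0785 TPM in each tissue where they were listed. In spleen the Crisp1 mean was 0.307 TPM for wild type against 0.0793 TPM for Tug1-/-, from a mean normalized count of 3.97 per library.

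Cd52 was abundant in spleen, with a wild-type mean of 1412 TPM and a Tug1-/- mean of 1119 TPM. In prostate it averaged 106 and 202 TPM, in heart 16.1 and 12.5 TPM, in MEFs 14.5 and 18.1 TPM, in eye 9.80 and 11.0 TPM and in liver 6.11 and 10.2 TPM. The ratio of the Tug1-/- to the wild-type mean of Cd52 was 1.91 in prostate and 1.66 in liver, where the macrophage and leukocyte genes Lyz2 (1.58 and 1.75) and Adgre1 (1.72 and 1.71) were also above 1. In MEFs it was 1.25 for Cd52, 1.87 for Lyz2 and 1.504 for Adgre1, and in eye 1.12, 1.31 and 1.34. In heart Cd52 went the other way from these genes, at 0.781 against 1.15 and 1.35. In spleen the ratios were 0.792, 0.927 and 0.906. In testes, where the Cd52 ratio was 3.50, the wild-type and Tug1-/- means were 37.0 and 52.5 TPM for Lyz2 and 5.17 and 5.66 TPM for Adgre1.

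Counted past 1.5-fold in either direction, 2 of 5 listed genes passed in liver (Lcn8 lower and Cd52 higher in Tug1-/-), where 10.1% of all genes did. In prostate 1 of 4 passed (Cd52), against 13.5% of all genes, and in spleen 1 of 3 (Crisp1), against 15.3%. In eye 0 of 4, in heart 0 of 1 and in MEFs 0 of 1 passed, against 12.7%, 8.75% and 12.7% of all genes.

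**Figure D5:**
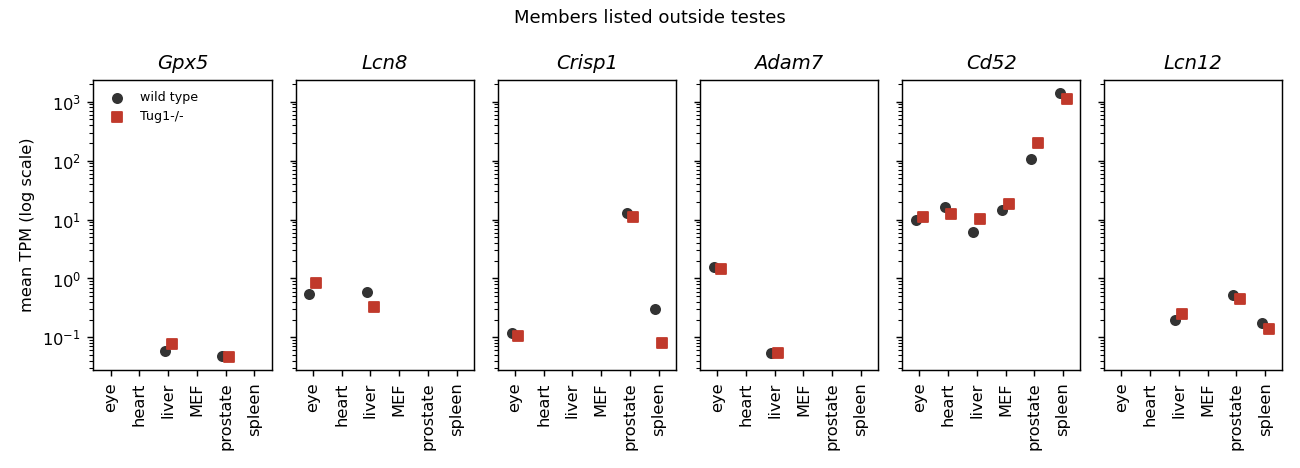
Mean TPM (log axis) of the 6 genes listed in at least 1 tissue other than testes, in wild type (black circles) and Tug1-/- (red squares); a tissue without points had no listed value. Cd52 has points in each of the 6 tissues and is highest in spleen, and Crisp1 is above 1 TPM in prostate.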

How the data were processed

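Polyadenylated RNA from snap-frozen tissue was sequenced as paired-end TruSeq libraries. Per the labels and the study's methods, the authors aligned reads to GRCm38 (mm10) with STAR, counted uniquely mapped reads per GENCODE gene with featureCounts and kept a gene where 1 or more replicates had at least 3 reads. The deposited values used here are group means in TPM, 1 column per group. A deposited signal, the mean normalized count over all libraries of a tissue, was also read. The tables further hold the authors' own comparisons from DESeq2 (fold changes, statistics, p-values), which were not used. No column of a sample outside the labels was used. Depth per sample is unknown, and brain rows of the table of other tissues, whose libraries are not in this series, and testes libraries of F1 hybrid mice were not analysed here.

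Ratios were taken on log2(TPM + 0.1), and a gene past 1.5-fold was counted. No test was run. The members and gene lists were chosen with earlier results of these data known. Named genes are the members, genes of the lists, and the 10 genes nearest to the members' median in the plane of 2 log2 ratios (at least 1 TPM in wild type); neighbouring genes were added after values were seen. Promoters came from RefSeq (GRCm38.p6, 250 bases before the start searched). Counting of fold limits was tested on simulated data. Work was done in Python 3.11.15 with pandas 2.3.3.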

Additional observations from a re-analysis of the deposited data

How the results depend on the processing

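With 0.01 TPM added, the median log2 ratio of the 9 genes was -10.92 for Tug1-/- over wild type and -11.43 for rescue over wild type. With 1 TPM added, the medians were -6.32, -8.31 and, for rescue over Tug1-/-, -0.61. Requiring a mean of at least 1 TPM in 1 of the groups compared moved the rescue over Tug1-/- median to -7.42, since fewer genes entered. That minimum also left Gpx5 out of the genes lower in rescue than in Tug1-/- testes, 4 in place of 5. The count of genes higher in rescue than in Tug1-/- testes was 0 with 1 TPM added, 1 at a fold limit of 2 and 0 with the 1 TPM minimum. At a fold limit of 2, 1 gene (Cd52) was higher in Tug1-/- than in wild type; the alternatives for that count were added after seeing the data. Of 103 alternative values for single genes 77 stayed within 1.5-fold, 26 moved further, and 0 changed direction. Centring on the median gene moved no count. Leaving out a replicate could not be run and no paired analysis was possible because the only expression values per group are means, and the size of every ratio over a group under 1 TPM depends on the added constant.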

Other observations

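Genes outside the lists had the same orders of means; the rules for these groups were set after the values had been seen. In testes, 78 genes had a wild-type mean of at least 1 TPM with both the Tug1-/- and the rescue mean under 5% of it. Tug1 and 5 of the 9 epididymal genes are among them, as are 14 of the 28 other epididymal genes and 11 beta-defensin genes. Examples are Defb25 (315 TPM in wild type, 0.173 TPM in Tug1-/-, 0.143 TPM in rescue), Ly6g5c (137, 0.420 and 0.493 TPM) and the tight junction gene Cldn2 (25.2, 0.287 and 0.303 TPM).

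A further 44 genes had a Tug1-/- mean of at least 1 TPM above the wild-type mean and a rescue mean under 5% of it, Crisp1 and Cd52 among them. They include 6 beta-defensin genes, such as Defb2 (13.6 TPM in wild type, 72.1 TPM in Tug1-/- and listed at 0 in rescue), the protease inhibitor genes Wfdc15b (43.9, 129 and 0.116 TPM) and Serpina16 (43.1, 92.6 and 1.06 TPM), and Ltf, which encodes lactoferrin (3.46, 30.9 and 0.0316 TPM).

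Some genes of skeletal muscle fibres also had their highest mean in Tug1-/- testes. Acta1, the skeletal muscle actin, averaged 0.380, 14.8 and 0.276 TPM in wild-type, Tug1-/- and rescue testes, and Myh4, a fast myosin, averaged 0.0876, 6.25 and 0.0526 TPM. Of 13 such genes 12 were higher in Tug1-/- than in wild type past 1.5-fold, against 4.71% of all genes. Acta1, Tnnt3, Myh4 and Tnni2 are among the 44 genes above, which were picked from these same means, so the count is no separate result. Tnnc2 (0.122, 0.248 and 0.161 TPM) and Myh2 (0.0500, 0.364 and 0.0486 TPM) count among the 12 but stayed under 1 TPM in each group.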
